A study of Homo sapiens with 6 samples.

Results

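The genes described are the 5 DYRK kinases DYRK1A, DYRK1B, DYRK2, DYRK3 and DYRK4, the WD-repeat protein DCAF7 and the DYRK-binding protein FAM53C. They were taken by gene symbol, 7 genes of the 23026 in the deposited normalized table, and 6 of the 7 were abundant enough to enter the main test of 9697 genes. mRNA was measured in 6 libraries of T98G, an established human glioblastoma cell line. Of these, 3 came from cells infected with shControl and 3 from cells infected with shDYRK1A, a lentivirus that expresses a short hairpin RNA against DYRK1A. In both groups the cells had been infected in suspension, selected with puromycin, left to recover and mixed at equal number with a constant number of Drosophila Kc167 cells before sequencing. No group with a second hairpin or with restored DYRK1A was analysed here, and each library is a selected population rather than a clone.

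DYRKs are protein kinases that phosphorylate one of their own activation-loop tyrosines while they are being translated and then act on serines and threonines of other proteins. DYRK1A and DYRK1B are close relatives found in both nucleus and cytoplasm, while DYRK2, DYRK3 and DYRK4 form a separate branch. DCAF7 is an adaptor that holds DYRK1A and DYRK1B to their partners and substrates, and FAM53C is a protein that binds the DYRK1 kinases and DCAF7. DYRK1A is best known for its gene dosage on chromosome 21, and in growth control for phosphorylating LIN52, a step in assembly of the cell-cycle repressor complex DREAM. The data are mRNA levels only, and no protein or kinase activity was measured in them.

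The libraries held 33708297 to 42154438 human gene counts. The spike-in size factor, by which the authors divided the counts of a library, ran from 0.821 to 1.03 in shControl and from 1.06 to 1.21 in shDYRK1A. With this scaling the median log2 fold change of all genes tested was -0.40. The share of genes that fell was 63.4% and the share that rose was 1.08%. When each library was scaled by its own human gene counts, the median was 0.02, with 24.8% of genes lower and 30.2% higher. Each of the 7 genes is therefore given on both scales, as a spike-in normalized count and as CPM, the human gene counts of a library scaled to a total of 1000000. Unless stated otherwise, p-values are from edgeR's quasi-likelihood test with Benjamini-Hochberg adjustment over all genes tested, and "rose" and "fell" mean an adjusted p below 0.05. In shDYRK1A 1B, 15.6% of reads were unmapped, against 8.44% to 11.9% in the other 5 libraries, and the part of this in the results was not tested. Of the 8 markers fixed for glioblastoma and neural progenitor lines, VIM ran from 1530 to 1975 CPM, CD44 from 1401 to 1592 CPM and EGFR from 132 to 157 CPM, and NES and OLIG2 were between 1.06 and 2.02 CPM. SOX2 had at most 2 counts and GFAP at most 4, and S100B had none, which allows up to 0.089 CPM in the smallest library. The 5 markers of other cell types summed to 1.42 to 1.77 CPM in shControl and to 1.96 to 2.76 CPM in shDYRK1A.

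DYRK1A, the hairpin target (ENSG00000157540), lies on the plus strand of chromosome 21 at 37365573 to 37526358 in GRCh38, the build of all gene positions given here. The authors' deposited position for it is narrower, 37365790 to 37517450. In the shControl libraries 1A, 1B and 1C its normalized counts were 2227, 2234 and 1895, and in the shDYRK1A libraries, in the same order, they were 1482, 1056 and 1285. All shDYRK1A libraries lay below all shControl libraries, and shDYRK1A 1B was the lowest. The mean went from 2119 ± 194 to 1274 ± 213 (SD, n = 3 each), so 60.2% of the control mean remained. DYRK1A fell by 0.73 on the log2 scale (SE 0.147, 95% interval -1.02 to -0.44, adjusted p = 5.33e-06). The study's own threshold of 0.7 for the size of a log2 fold change was passed by 14.3% of genes in the downward direction and by 0.278% in the upward direction, and DYRK1A was the only one of the 6 tested genes past it. It was short of that threshold when any of 3 libraries was left out, at -0.696 (shControl 1A), -0.693 (shControl 1B) and -0.615 (shDYRK1A 1B). With library size alone it was also short of it, at -0.31.

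As a share of human counts the depletion was smaller. DYRK1A stood at 46.3, 46.7 and 47.2 CPM in the shControl libraries, a spread (SD) of 0.995% of the mean, which is below the counting error of 2.25 to 2.34% per library. It stood at 40.4 CPM (95% Wilson interval 38.5 to 42.5), 33.8 CPM (31.9 to 35.8) and 38.6 CPM (36.7 to 40.5) in shDYRK1A 1A, 1B and 1C. These intervals account for counting error alone and not for variation between libraries. PCR copies of a molecule were not marked and could be read more than once, which the intervals also leave out. The interval of shDYRK1A 1B lay below those of the other shDYRK1A libraries, as it also did for the share of DCAF7, at 139.6 CPM (135.6 to 143.6) in that library. The mean share was 80.5% of the control mean and the log2 fold change with library size alone was -0.31 (SE 0.0667, adjusted p = 0.00188). In bulk RNA a lower level in every cell and a mixture of depleted and undepleted cells cannot be told apart. AP001437.1, an antisense gene over 1.35% of the DYRK1A exon bases, had raw counts that ran from 19 to 52 per library.

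DYRK1B, the closest relative of DYRK1A and a kinase known from muscle differentiation and quiescent cells, went the other way. DYRK1B (ENSG00000105204, chromosome 19, 39825350 to 39834201, minus strand) had raw counts of 384, 508 and 436 in shControl and of 864, 798 and 912 in shDYRK1A, in the order 1A, 1B and 1C as for all genes that follow. After spike-in scaling these became 467, 576 and 424 against 817, 739 and 751 normalized counts. Every shDYRK1A library exceeded every shControl library, whichever of these scales was used. The normalized mean went from 489 ± 78.3 to 769 ± 41.6 (SD, n = 3 each), which is 157% of the control mean. DYRK1B rose by a log2 fold change of 0.65 (SE 0.162, 95% interval 0.34 to 0.97, adjusted p = 0.000222), where 1.08% of all genes rose. It took rank 9666 of 9697 counted from the most reduced gene, and it lay 1.05 log2 units above the median gene.

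The share of DYRK1B went from 9.72, 12.1 and 10.6 CPM in the shControl libraries to 22.3, 23.7 and 22.6 CPM in the shDYRK1A libraries. The share in shDYRK1A was 212% of that in shControl, with a log2 fold change of 1.08 (SE 0.0835, adjusted p = 1.08e-06) under library size alone. The rise in edgeR was past an adjusted p of 0.05 under every scaling tried and without any single library, with log2 fold changes from 0.56 to 1.08. It exceeded 0.7 when the human genes set the scale and without shControl 1B, where it was 0.79. No other annotated gene shares exon bases with DYRK1B.

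Promoter sequence was looked at because DYRK1B alone among the tested members rose with spike-in scaling, and because the study concerns promoters that carry the palindrome TCTCGCGAGA. The RefSeq table (GRCh38.p14) gave 15 windows for 6 of the 7 genes, each 300 bases from 250 before to 50 after a start. DYRK1A had 6 windows, DYRK4 had 5, and DYRK1B, DYRK3, DCAF7 and FAM53C had 1 each. On both strands, the full palindrome was found in 0 of the 15 windows and in 0.424% of all 35116 windows in the table. Its first 7 bases, TCTCGCG, were found in the DYRK1B window only, against 3.49% of all windows. The E-box CACGTG was found in the DYRK1B window and in 1 DYRK1A window, against 7.26% of all windows. These 2 windows are shown, with matches to TCTCGCG or CACGTG in capitals. The DYRK1B window is chr19:39834113-39834412 on the minus strand, and the DYRK1A window is chr21:37366523-37366822 on the plus strand.
DYRK1B: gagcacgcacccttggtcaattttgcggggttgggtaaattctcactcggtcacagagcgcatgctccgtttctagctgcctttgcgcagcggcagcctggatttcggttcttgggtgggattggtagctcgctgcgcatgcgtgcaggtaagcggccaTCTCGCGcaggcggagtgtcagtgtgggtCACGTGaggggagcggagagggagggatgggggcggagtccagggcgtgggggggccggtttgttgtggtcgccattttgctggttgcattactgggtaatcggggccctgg
DYRK1A: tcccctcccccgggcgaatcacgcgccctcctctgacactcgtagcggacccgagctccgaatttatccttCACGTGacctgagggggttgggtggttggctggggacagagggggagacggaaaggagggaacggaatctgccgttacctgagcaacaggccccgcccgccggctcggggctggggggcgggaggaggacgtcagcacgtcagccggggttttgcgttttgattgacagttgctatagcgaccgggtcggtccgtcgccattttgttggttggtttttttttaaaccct
The GC box GGGCGG was present in 7 of the 15 windows and in 45.0% of all windows. CCAAT was present in 6 of the 15 and in 34.6% of all windows. The DYRK4 windows chr12:4589828-4590127 and chr12:4589849-4590148 overlap, and the same CCAAT match was counted in both. All of these are matches of letters, and no binding was measured in these data.

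DYRK2 is a kinase of p53. DYRK2 (ENSG00000127334, chromosome 12, 67648338 to 67665406, plus strand) had normalized counts of 576, 563 and 518 in shControl and of 402, 309 and 330 in shDYRK1A. The groups did not overlap, and shDYRK1A 1B was again the lowest library. DYRK2 fell by 0.67 on the log2 scale (SE 0.167, adjusted p = 0.000253), with 62.9% of the control mean remaining. Its share was 11.97, 11.77 and 12.91 CPM in shControl and 11.0, 9.91 and 9.92 CPM in shDYRK1A, again without overlap. With library size alone DYRK2 fell by 0.25 (SE 0.0823, adjusted p = 0.0211), where 24.8% of all genes fell.

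DYRK3, a kinase that dissolves stress granules and other RNA-protein condensates, had the largest fall of the 7 genes but was also the scarcest by read count. It (ENSG00000143479, chromosome 1, 206635536 to 206684419, plus strand) had raw counts of 357, 393 and 352 in shControl and of 268, 234 and 229 in shDYRK1A. At a mean of 7.98 CPM of the mean library it was under the limit of 10 CPM for the main test. Its normalized counts of 435, 446 and 343 in shControl stood against 253, 217 and 189 in shDYRK1A, which did not overlap and left 53.9% of the control mean. With edgeR's filterByExpr, which kept 17530 genes, DYRK3 fell by 0.89 (SE 0.178, adjusted p = 6.87e-06), where 44.2% of genes fell. Its share went from 8.54 to 9.32 CPM in shControl to 5.66 to 6.94 CPM in shDYRK1A, and with library size alone it fell by 0.47 (adjusted p = 0.00238), where 16.3% of the same genes fell.

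DYRK4, the least studied of the kinases, did not differ beyond the spread of the libraries. DYRK4 (ENSG00000010219, chromosome 12, 4562204 to 4615302, plus strand) had normalized counts of 622, 546 and 576 in shControl and of 598, 464 and 459 in shDYRK1A. The value of shDYRK1A 1A lay inside the range of the shControl libraries. The log2 fold change was -0.20 (SE 0.164, 95% interval -0.52 to 0.12, adjusted p = 0.272) with spike-in scaling and 0.22 (95% interval 0.0039 to 0.43, adjusted p = 0.0777) with library size alone, so the direction depended on the scale. The share was 12.9, 11.4 and 14.4 CPM in shControl and 16.3, 14.9 and 13.8 CPM in shDYRK1A, and these ranges overlapped. AC005832.4, which shares 2.03% of the DYRK4 exon bases on the same strand, and AC078777.1, opposite 6.26% of those of DYRK2, had 0 counts in every library.

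DCAF7 was the most abundant of the 7 genes by read count. DCAF7 (ENSG00000136485, chromosome 17, 63550461 to 63594266, plus strand) had normalized counts of 7223, 7214 and 6081 in shControl and of 5524, 4359 and 5152 in shDYRK1A. The groups did not overlap, with shControl 1C and shDYRK1A 1A closest to each other. The mean went from 6839 ± 657 to 5012 ± 595 (SD, n = 3 each), or 73.3% of control. DCAF7 fell by 0.45 (SE 0.135, adjusted p = 0.00244), 0.05 log2 units below the median of all genes. Its share was 150.2, 150.8 and 151.6 CPM in shControl and 150.7, 139.6 and 154.7 CPM in shDYRK1A. Only shDYRK1A 1B stood below the shControl libraries on this scale, and shDYRK1A 1C stood above them. The log2 fold change with library size alone was -0.02 (95% interval -0.13 to 0.08, adjusted p = 0.681), so the fall of DCAF7 was seen with the spike-in only.

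FAM53C (ENSG00000120709, chromosome 5, 138331935 to 138349729, plus strand) had normalized counts of 4861, 5072 and 4279 in shControl and of 4317, 3461 and 3940 in shDYRK1A. The ranges overlapped, since shDYRK1A 1A was above shControl 1C. The log2 fold change was -0.28 (SE 0.138, 95% interval -0.55 to -0.01, adjusted p = 0.0644), short of the threshold. Leaving out shControl 1C gave -0.35 (adjusted p = 0.00898) and leaving out shDYRK1A 1A gave -0.36 (adjusted p = 0.0343). As a share, FAM53C was at 101.1, 106.0 and 106.7 CPM in shControl and at 117.8, 110.8 and 118.3 CPM in shDYRK1A, all above the control libraries. With library size alone it rose by 0.14 (SE 0.0468, adjusted p = 0.0196), where 30.2% of all genes rose, so its fold change had opposite signs on the 2 scales. FAM53C shares 9.98% of its exon bases with genes on the opposite strand, among them the mitotic phosphatase gene CDC25C, which had 1663 to 1721 raw counts in shControl and 1256 to 1523 in shDYRK1A and fell by 0.56 with spike-in scaling (adjusted p = 0.000537). The library kit keeps strand, but the strand setting used for counting was not given in the sources used here, so the effect of this overlap on FAM53C was not tested.

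**Figure D1:**
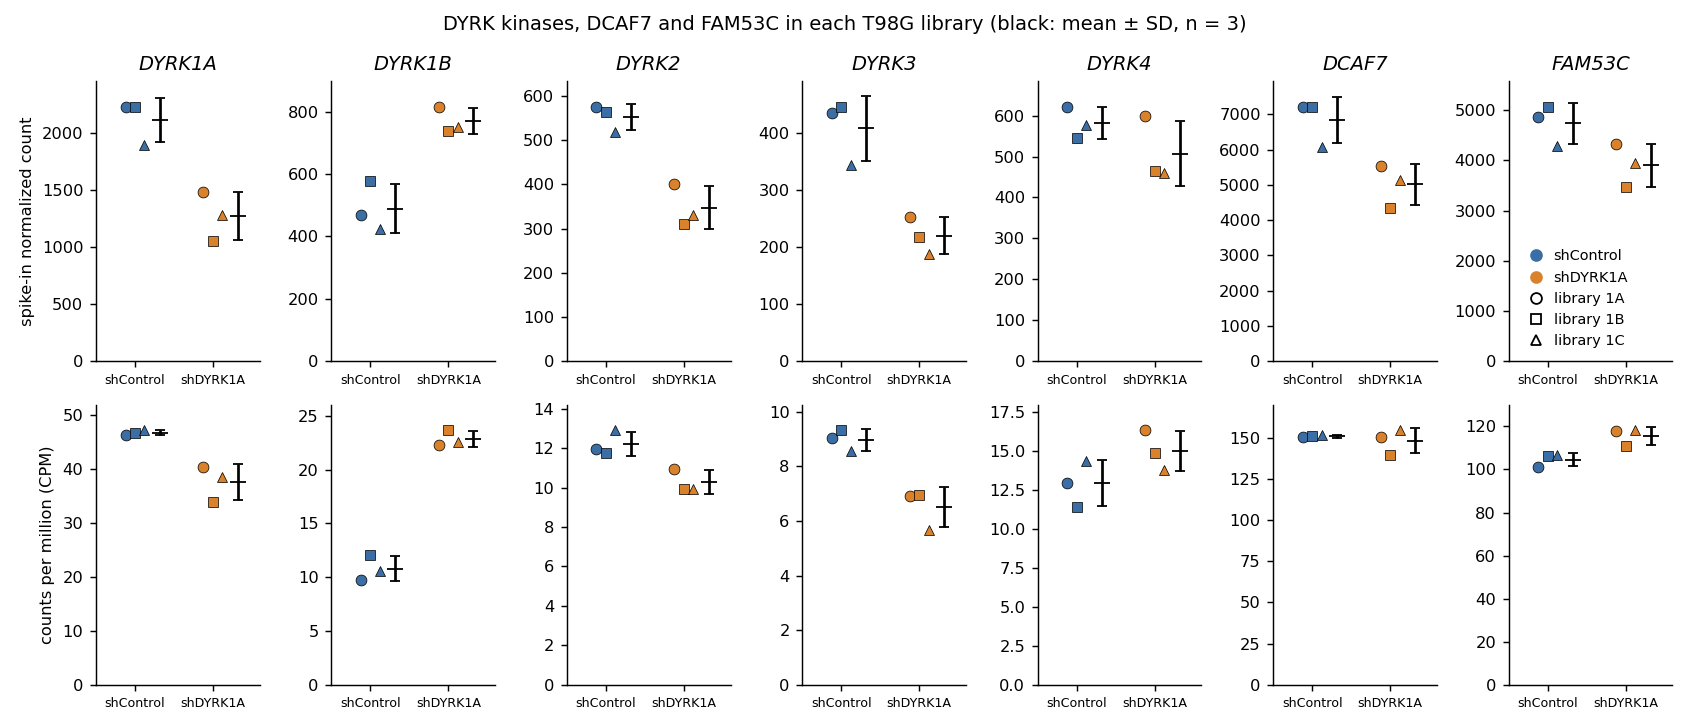
Spike-in normalized counts (upper row) and CPM (lower row) of the 7 genes in each library, from 0, with the mean ± SD of 3 libraries in black. DYRK1B is higher in all shDYRK1A libraries on both scales, and DYRK1A, DYRK2 and DYRK3 are lower on both, while DCAF7 separates only in the upper row and FAM53C only in the lower row.

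Across the 7 genes, the groups did not overlap for 5 with spike-in scaling, 4 lower and 1 higher in shDYRK1A, where 65.2% of all genes tested showed no overlap. They did not overlap for 5 as a share of human counts, 3 lower and 2 higher, where the figure for all genes was 62.8%. Both percentages are over the 9697 genes of the main test. DYRK3 is among the 5 on either scale but was under the limit for that test. Of the 6 genes in the main test, DYRK1A, DYRK2 and DCAF7 fell and DYRK1B rose, where 63.4% of all genes fell and 1.08% rose. With library size alone DYRK1A and DYRK2 fell, and DYRK1B and FAM53C rose, where 24.8% of all genes fell and 30.2% rose. The labels do not say whether the libraries 1A, 1B and 1C came from separate infections, so the p-values measure the spread between these libraries, which may be technical.

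**Figure D2:**
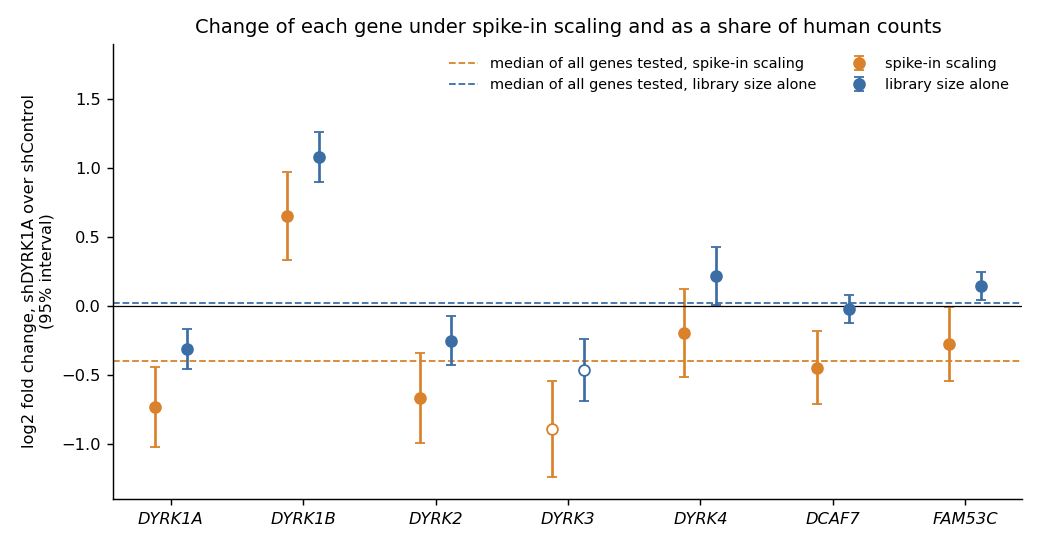
Log2 fold change of each gene, shDYRK1A over shControl, with its 95% interval from edgeR, under spike-in scaling (orange) and library size alone (blue). Dashed lines are the medians of all genes tested, -0.40 and 0.02, and the open symbols for DYRK3 come from the fit with filterByExpr. DYRK1B is above zero and DYRK1A, DYRK2 and DYRK3 are below zero on both scales.

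The ratio of 2 transcripts within a library does not depend on how libraries are scaled. Since DYRK1A is the depleted gene, its ratios moved for most genes, and the groups separated upward for 74.9% of the other 9696 genes tested and downward for 5.58%. For DYRK1B, there were 0.21, 0.258 and 0.224 counts per DYRK1A count in the shControl libraries and 0.551, 0.7 and 0.585 in the shDYRK1A libraries. The 2 kinases thus came closer to each other in read count in every knockdown library, and closest in shDYRK1A 1B. On the log2 scale the ratio went from -2.12 ± 0.152 to -0.72 ± 0.18 (SD, n = 3 each), a 2.65-fold difference (two-sided exact permutation test, p = 0.1, the smallest that 3 against 3 libraries can give). Leaving out 1 library at a time gave differences of 1.30 to 1.49 log2 units.

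The other ratios moved less, and an upward separation of the groups was common among all genes. DCAF7 had 3.21 to 3.24 counts per DYRK1A count in shControl, a narrow range, and 3.73 to 4.13 in shDYRK1A, with no overlap. The log2 difference was 0.29, or 1.22-fold (exact permutation test, p = 0.1). For FAM53C the ratio went from 2.18 to 2.27 in shControl to 2.91 to 3.28 in shDYRK1A, a log2 difference of 0.46 (exact permutation test, p = 0.1). DYRK4 also showed no overlap, with a log2 difference of 0.54 (exact permutation test, p = 0.1). By contrast, the ratio of DYRK2 to DYRK1A overlapped between groups, at 0.252 to 0.273 in shControl and 0.257 to 0.293 in shDYRK1A (exact permutation test, p = 0.5). That of DYRK3 overlapped as well, at 0.181 to 0.2 in shControl and 0.147 to 0.205 in shDYRK1A (exact permutation test, p = 0.4). At 3 libraries a group these p-values do not show that DYRK2 and DYRK3 kept pace with DYRK1A.

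**Figure D3:**
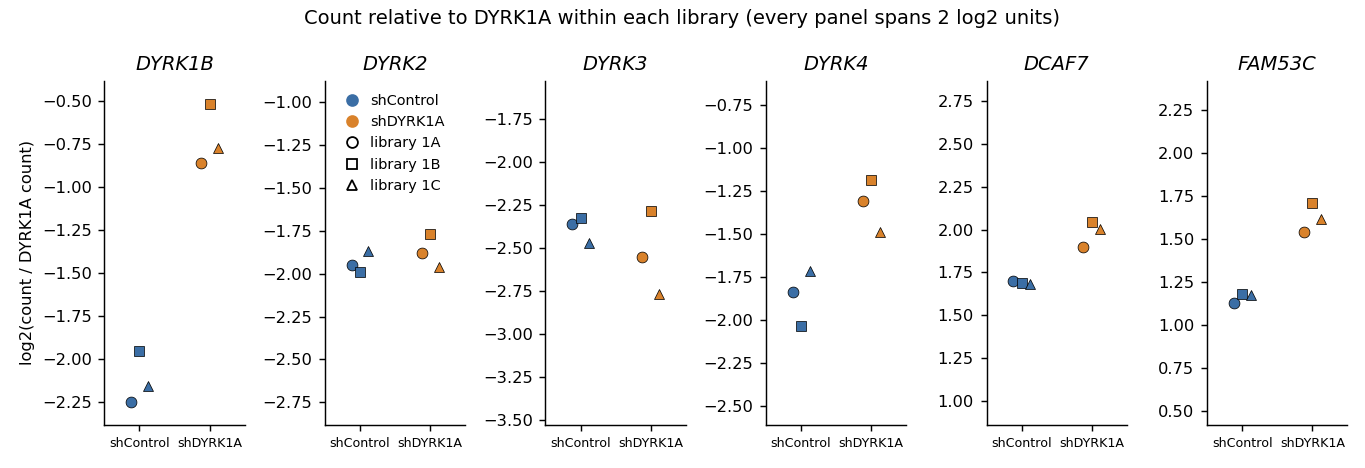
Log2 of the raw count of each gene over that of DYRK1A in the same library, for the 3 shControl (blue) and 3 shDYRK1A (orange) libraries, each panel spanning 2 log2 units. The groups separate for DYRK1B, DYRK4, DCAF7 and FAM53C, with the widest gap for DYRK1B, and overlap for DYRK2 and DYRK3, where 74.9% of all other genes tested separated upward.

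Which kinase makes up most of the DYRK mRNA depended on the length by which counts were divided. DYRK1A has 26602 annotated exon bases when all transcripts are merged, while its basic coding transcripts have a median of 2881 bases. These lengths are from GENCODE 29, where DYRK1A extends beyond the position deposited by the authors. The merged exons may thus include bases that were not counted, and the effect on the DYRK1A share was not tested. Per kilobase of merged exons, DYRK1B was the largest component in both groups. It made up 32.7% ± 2.77 (SD, n = 3) of the summed DYRK counts per kilobase in shControl and 53.9% ± 2.13 (SD, n = 3) in shDYRK1A. On the same scale DYRK1A went from 17.0% ± 0.405 to 10.7% ± 1.04 (SD, n = 3 each). Per kilobase of the median coding transcript, DYRK1A was the largest component and went from 48.3% ± 0.492 to 36.9% ± 2.52 (SD, n = 3 each). DYRK1B then went from 14.4% ± 1.53 (SD, n = 3), behind DYRK4 at 18.6% ± 1.93 (SD, n = 3), to 29.0% ± 1.92 (SD, n = 3), ahead of DYRK4 at 20.5% ± 1.06 (SD, n = 3). With either length, the share of DYRK1B was higher in all shDYRK1A libraries than in all shControl libraries (exact permutation test, p = 0.1). The shares of DYRK1A, DYRK2 and DYRK3 were lower in all shDYRK1A libraries (exact permutation test, p = 0.1 for each). All are parts of the same sum, so a larger DYRK1B share by itself lowers the others, and these are not separate results.

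DYRK2 was the smallest component with either length, going from 12.5% ± 0.642 to 8.14% ± 0.373 (SD, n = 3 each) per kilobase of merged exons. DYRK3 went from 20.1% ± 1.08 to 11.3% ± 0.953 (SD, n = 3 each) on that scale, above DYRK4 and DYRK1A in shControl, where DYRK4 was at 17.7% ± 2.14 (SD, n = 3). The DYRK3 and DYRK4 shares in shControl, and the DYRK1A and DYRK3 shares in shDYRK1A, differed by less than the sum of their SDs. DYRK4 overlapped between groups with either length, and its mean moved in opposite directions under the 2 lengths. Summed over the 5 kinases, the share of reads was 91.6 ± 1.86 CPM without and 92.2 ± 4.12 CPM with the DYRK1A hairpin (SD, n = 3 each, exact permutation test, p = 0.9). With spike-in scaling the sum went from 4149 ± 341 to 3117 ± 393 normalized counts (SD, n = 3 each) without overlap, a log2 difference of -0.41 beside the median of -0.40 for all genes.

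**Figure D4:**
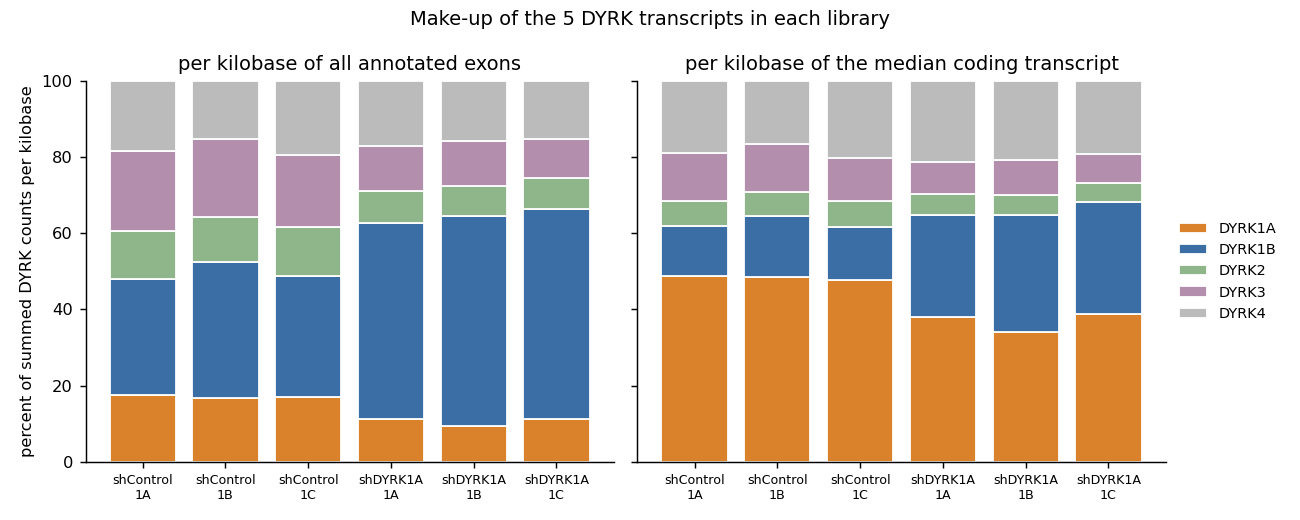
Percent of the summed DYRK counts per kilobase held by each of the 5 kinases in the 6 libraries, with counts divided by the length of all merged exons (left) or of the median basic coding transcript (right). The DYRK1B segment is wider and the DYRK1A segment narrower in each shDYRK1A library than in each shControl library in both panels, while the order of the kinases differs between panels.

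The genes whose products bind, receive phosphate from or resemble the DYRKs were then read as lists, beside the 63.4% of all genes that fell and the median of -0.40. The lists share genes and are not separate sets. SIAH2 and KATNA1 are in both the binding partners and the substrates. LIN52 is in the substrates and in DREAM, and HIPK2 is in the binding partners and the related kinases. Of 20 binding partners of DYRKs and DCAF7, 20 were tested and 18 fell, with a median of -0.45. SPRED1, an inhibitor of RAS-ERK signalling, was the lowest and fell by 1.26 (adjusted p = 4.65e-13), from 963 ± 109 to 401 ± 49.6 normalized counts (SD, n = 3), and was at -0.83 (adjusted p = 1.02e-05) with library size alone. HIPK2, a related nuclear kinase that also binds DCAF7, was the highest, at -0.08 (adjusted p = 0.586) with spike-in scaling and 0.34 (adjusted p = 0.00108) with library size alone. Of 33 substrates, 28 were tested, 18 fell and none rose, with a median of -0.39. JUN, a subunit of the transcription factor AP-1, was the lowest and fell by 1.12 (adjusted p = 9.77e-13), from 2742 ± 393 to 1262 ± 105 normalized counts (SD, n = 3), and was at -0.69 (adjusted p = 8.75e-06) with library size alone. CASP9, the initiator caspase of the mitochondrial death pathway, was the highest at 0.19 (adjusted p = 0.31), and rose by 0.62 (adjusted p = 0.000104) with library size alone.

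Of 12 HIPK, CLK, SRPK and PRPF4B kinases, which belong to the same CMGC kinase group, 10 were tested and 6 fell, with a median of -0.41. SRPK1, a kinase of splicing factors, fell by 0.72 (adjusted p = 1.73e-06), and was at -0.30 (adjusted p = 0.00125) with library size alone. CLK1, which also acts on splicing factors, was at 0.17 (adjusted p = 0.322) with spike-in scaling and rose by 0.59 (adjusted p = 4.2e-05) with library size alone. Of 11 DREAM subunits, 9 were tested and 7 fell, with a median of -0.58. LIN9, a core subunit, was the lowest and fell by 0.90 (adjusted p = 1.97e-07), and was at -0.47 (adjusted p = 0.000101) with library size alone. E2F4, which binds DNA within DREAM, was the highest at -0.26 (adjusted p = 0.0848), and rose by 0.17 (adjusted p = 0.0102) with library size alone. Of the 3 FAM53 genes, FAM53B fell by 0.50 (adjusted p = 0.00236) with spike-in scaling only, since with library size alone it was at -0.07 (adjusted p = 0.34), and FAM53A was below the limit for testing.

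With library size alone the lists divided between directions. The binding partners gave 7 lower and 5 higher, the substrates 9 and 9, the related kinases 1 and 3, and the DREAM subunits 5 and 1, where 24.8% of all genes fell and 30.2% rose. The medians were -0.03, 0.03, 0.02 and -0.16 for these lists, beside 0.02 for all genes. DYRK1B thus had a larger log2 fold change, on either scale, than any tested gene of these lists.

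**Figure D5:**
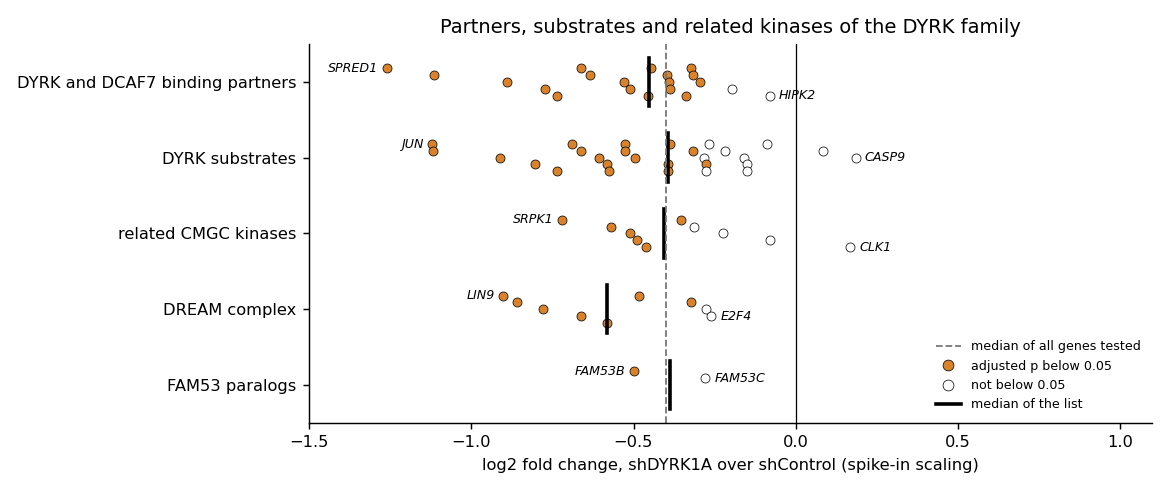
Log2 fold change (spike-in scaling) of each tested gene in the 5 lists, orange where the adjusted p was below 0.05, with the median of each list in black and the median of all genes, -0.40, dashed. All orange points lie below zero, and SPRED1 at -1.26 and JUN at -1.12 are the lowest of their lists.

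Genes with the most similar CPM profile were sought for each of the 6 tested members, by Euclidean distance between log2 CPM centred on the mean of the 6 libraries. This is a description over 6 libraries that share 1 contrast. The nearest to DYRK1A were RRP7BP at a distance of 0.0464 and the actin-regulating adaptor EPS8 at 0.0473, whose log2 fold changes with spike-in scaling were -0.74 and -0.75. For DYRK1B they were the amino acid transporter gene SLC43A2 at 0.167 and the aggrecan-cleaving protease gene ADAMTS5 at 0.194, with 0.71 and 0.73. For DYRK2 they were TRIQK and the sarcoglycan gene SGCB, at 0.0702 and 0.0807. For DYRK4 they were HMBOX1 and LRRC57, at 0.113 and 0.128. For DCAF7 they were the tyrosine phosphatase gene PTPN1 and UBFD1, at 0.0239 and 0.029, and for FAM53C the kinase gene CDC42BPB and NUB1, at 0.0249 and 0.0341. The distances were smallest for the abundant genes DCAF7 and FAM53C and largest for DYRK1B.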

How the data were processed

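For each library the authors deposited raw counts of 58174 genes, made with STAR against hg38 per the labels, together with their normalized signal for 23026 genes, which is the counts divided by 1 size factor per library derived from Drosophila reads. A deposited table of their own DESeq2 results (log2 fold changes, errors, a test statistic and p-values) was not used. Reads that were unmapped (8.44 to 15.6%), multimapping (2.26 to 2.49%), outside features (3.66 to 4.81%) or ambiguous (3.42 to 3.59%) were kept out of library sizes. Groups came from the sample titles, and 0 columns matched no sample.

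Size factors were recovered as the ratio of raw to normalized counts. Genes with a mean above 10 CPM of the mean library entered the robust quasi-likelihood test of edgeR 4.0.16 (glmQLFTest), with p-values adjusted by Benjamini-Hochberg, in R 4.3.3. Values per library were compared by exact permutation tests, two-sided, in Python 3.11.15 with scipy 1.17.1. Coordinates and exons are from GENCODE 29. Of each list the lowest and highest gene is named, and for each member the 2 nearest profiles (prior count 2). TMM and median-of-ratios scaling, library size alone, DESeq2 1.42.0, filterByExpr, no filter beyond 1 count, a replicate block and leaving out each library were the alternatives. The edgeR fit was run on counts simulated with known size factors and no general shift, so errors in the spike-in scaling were not tested. The genes and the lists were chosen with earlier results of these data known. DYRK2 had no promoter window in the RefSeq table.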

Additional observations from a re-analysis of the deposited data

How the results depend on the processing

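The fall of DYRK1A and the rise of DYRK1B passed an adjusted p of 0.05 in edgeR and DESeq2 under every alternative run. The log2 fold change of DYRK1A ran from -0.85 to -0.61 when 1 library was left out. When the human genes set the scale, DYRK4 turned to 0.19 (TMM), 0.20 (median of ratios) and 0.22 (library size alone). In the same order FAM53C turned to 0.12, 0.13 and 0.14, HIPK2 to 0.32, 0.32 and 0.34, E2F4 to 0.15, 0.15 and 0.17, HMBOX1 to 0.24, 0.24 and 0.26, LRRC57 to 0.17, 0.18 and 0.20, CDC42BPB to 0.11, 0.11 and 0.13, and NUB1 to 0.13, 0.14 and 0.15. HIPK2 ran from -0.18 to 0.052 when 1 library was left out, the highest being without shDYRK1A 1B. The number of tested members that rose was 2 rather than 1 under each of these 3 scalings, since FAM53C joined DYRK1B. The call of FAM53C depended on the filter. With filterByExpr it held with library size alone (0.14, adjusted p = 0.0251). It did not hold there with TMM (0.092, adjusted p = 0.138) or median of ratios (0.095, adjusted p = 0.13). Of all genes, 63.4% fell and 1.08% rose with spike-in scaling, and 24.8% fell and 30.2% rose with library size alone. The number past the fold threshold was 2 with filterByExpr and with every gene of at least 1 count, which add DYRK3. It was 0 to 2 when 1 library was left out. Under the 3 scalings by human genes it stayed at 1, but the gene was DYRK1B and not DYRK1A. DYRK1A was then at -0.34 (TMM), -0.33 (median of ratios) and -0.31 (library size alone). Without shControl 1B the gene past the threshold was also DYRK1B, at 0.79. The number of tested members that fell was 3, and 2 under the 3 scalings by human genes, where DCAF7 lost its call, as did FAM53B, PTPN1 and UBFD1. It was 4 with DESeq2, with filterByExpr and with every gene of at least 1 count, and 3 to 4 when 1 library was left out. The log2 difference of the DCAF7 share ran from -0.057 to 0.017 when 1 library was left out, and was above 0 without shDYRK1A 1B only. DESeq2 put FAM53C past the threshold (adjusted p = 0.0341). The DYRK1A part of the DYRK sum differed by -10.3 percentage points with no division by length and by -11.4 with the median transcript length, against -6.38 with merged exons. The DYRK4 part differed by 2.17 and 1.91 points, against -1.75. The median transcript length, and the other scalings combined with filterByExpr for DYRK3 and FAM53C, were chosen after seeing the data.

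Correlations of deviations from the group means were 0.151, 0.0728 and 0.128 for libraries with the same letter and -0.0937 to -0.0143 for the others. As deviations cancel out within a group, positive values for the same letter make the others negative, which adds no separate evidence. Each library correlated best with its own letter, a hint from the data only, and the letters were not taken to pair the samples. With the letter as a replicate block, DYRK1A was at -0.74 (adjusted p = 2.04e-05) and no call of the 7 genes changed. DYRK3, with 229 to 393 counts, had a counting error of 5.04 to 6.61% per library, against 1.25 to 1.46% for DCAF7.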
